A study of Mus musculus with 4 samples.

Results

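The slit diaphragm is the cell junction that spans the gap between neighbouring podocyte foot processes in the glomerular filter. Its genes are described here by 7 members: Nphs1, Fat1, Cd2ap, Magi2, Tjp1, Trpc6 and Plce1. They were taken from a list of names, and every WT1 peak with its midpoint in the gene or within 50 kb of it was collected, out of the same count over 21887 protein-coding genes. That gave 88 of the 53132 peaks of WT1 replicate 1, 78 of the 57641 peaks of WT1 replicate 2, and 29 of the 17234 regions that the authors list as found in both replicates, called overlap regions below.

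The values come from chromatin immunoprecipitation with sequencing (ChIP-seq) of microdissected kidneys from wild-type mouse embryos at E18.5, of a mixed background (C57Bl6 crossed with B6DBA/F1). There were 2 samples precipitated with the WT1 antibody C-19, from experiments described as independent, and 2 samples precipitated with IgG, which were not analysed here. All samples shared genotype, stage and tissue, and the labels do not say how many embryos went into a sample. The kidney was used whole, so the lists do not say in which of its cells a site was occupied, and occupancy of more cells cannot be told apart from stronger occupancy per cell.

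Podocytes face each other across the slit through nephrin and related adhesion molecules. Inside the foot process, scaffold proteins tie those molecules to the actin cytoskeleton, and signalling enzymes and channels gather at the same place. WT1 is a zinc-finger transcription factor that podocytes keep expressing after the nephron has formed, and mutations of it, as of several slit diaphragm genes, cause nephrotic syndrome in people.

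Every peak comes with the authors' significance value, a p or q that stays under 0.05 and is smaller for stronger peaks. Overlap regions come instead with an irreproducible discovery rate (IDR), an error rate that is low where both replicates rank a region highly. The word reproducible is kept for those at 0.05 or below, 4411 regions in the genome. No read counts are in these lists, and the sequencing depth is unknown.

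The sequences below show the promoter letters that the peaks do or do not reach, taken from RefSeq (GRCm38.p6, whose primary chromosomes mm10 shares). All 7 genes had an entry in the RefSeq promoter table, Magi2 with 2 starts, so 8 windows were read. Each printed sequence is the stretch of 250 bases before the RefSeq transcription start, in the direction of the gene. The first, at chr5:19226796-19227045 on the plus strand, is from the only window of these 8 that an overlap region reached. Its capitals mark the 96 bases inside the reproducible region.
Magi2: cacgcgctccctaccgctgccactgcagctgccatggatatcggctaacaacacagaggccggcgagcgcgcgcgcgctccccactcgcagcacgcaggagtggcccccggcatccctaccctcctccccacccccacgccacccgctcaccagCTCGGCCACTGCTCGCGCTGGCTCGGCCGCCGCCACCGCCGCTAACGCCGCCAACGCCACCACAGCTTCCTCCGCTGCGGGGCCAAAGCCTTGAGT
The others are examples of windows that no overlap region reached although they hold the searched motif, which their capitals mark. The windows of Tjp1 and Fat1 also held it unreached and are not printed. Nphs1 is at chr7:30459808-30460057 on the plus strand and Cd2ap at chr17:42876425-42876674 on the minus strand.
Nphs1: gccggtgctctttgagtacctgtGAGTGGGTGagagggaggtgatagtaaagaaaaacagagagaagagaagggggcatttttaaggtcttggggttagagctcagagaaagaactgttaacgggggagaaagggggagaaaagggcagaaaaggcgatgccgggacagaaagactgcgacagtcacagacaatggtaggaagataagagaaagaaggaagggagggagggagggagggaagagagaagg
Cd2ap: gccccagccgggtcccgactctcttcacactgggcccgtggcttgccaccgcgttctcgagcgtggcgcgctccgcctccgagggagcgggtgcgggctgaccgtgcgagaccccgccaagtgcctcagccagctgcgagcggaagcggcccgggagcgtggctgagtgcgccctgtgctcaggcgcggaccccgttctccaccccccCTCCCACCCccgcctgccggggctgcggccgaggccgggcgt
The motif was GNGTGGGNG, a short G-rich pattern of the kind that WT1 and the EGR zinc-finger proteins bind, sought on both strands. It occurred in 5 of the 8 member windows (300 bases each) and in 14.3% of the 32841 windows of the table without an unknown base. In windows overlapping a reproducible region the share was 33.1% of 626, and in the remaining 32215 it was 13.95%. Those 626 were 1.91% of the windows, and 1 of the 8 member windows, that of Magi2, was reached. Member windows ranged in GC content from 41% to 77% against a median of 52.7% in the table, and the part of base composition in the motif counts was not tested. A longer form, the WT1 element known as WTE, was in 0 member windows and 0.0548% of all windows, and the EGR-like GCGGGGGCG was in 1 (Tjp1) and in 2.91% of all windows.

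Of the 7 genes, 3 had a reproducible region in the gene or within 50 kb: Nphs1, Magi2 and Tjp1, with 2 each. Among all protein-coding genes 26.1% had at least 1 and 8.37% had 2 or more. Slit diaphragm genes are long, with a median span of 137 kb against 17.2 kb for all protein-coding genes, and long genes collect more regions. Of the 6 members of 100 kb or longer, 2 had a reproducible region, against 42.0% of the 2429 protein-coding genes of that length. Those 2, Magi2 and Tjp1, had 2 regions each, and 17.8% of genes of that length had 2 or more. The count of members with at least 1 was therefore near the background for genes of their length. With 2 samples of 1 group and no control list there is no test, and the counts are descriptions. All 7 members had a peak in each replicate, as did 84.4% of all protein-coding genes in replicate 1 and 83.3% in replicate 2, and 98.3% and 96.7% of those of 100 kb or longer. The nearest values on either side of the threshold were an IDR of 0.0487 at Tjp1, inside it, and 0.0707 at Plce1, outside it.

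**Figure D1:**
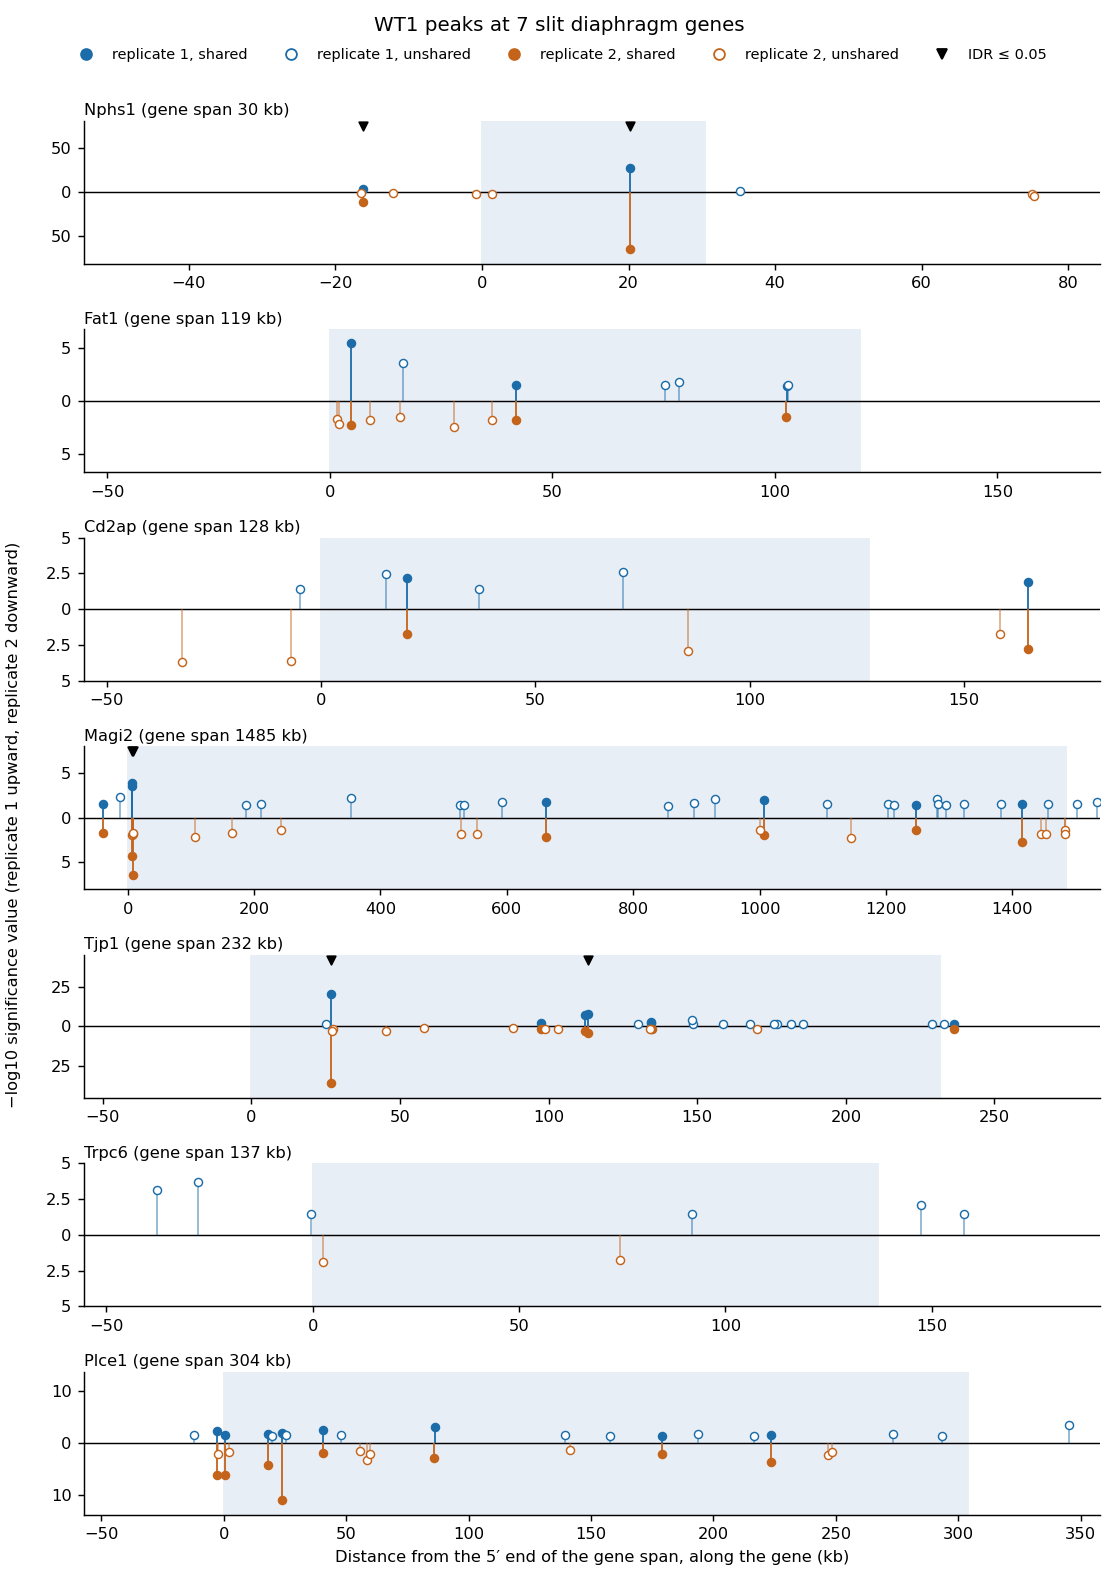
WT1 peaks at each of the 7 genes by distance from the 5′ end of the gene span (kb, shaded span), with −log10 of the significance value upward for replicate 1 and downward for replicate 2; filled points overlap a peak of the other replicate and triangles mark regions with an IDR of 0.05 or lower. The tallest pairs stand inside Nphs1 and Tjp1, the 2 triangles of Magi2 lie 6.19 and 7.69 kb from its 5′ end and merge at this scale, and no filled point appears at Trpc6; the vertical scale differs between panels.

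The adhesion molecules of the slit came out differently. Nphs1 encodes nephrin, the immunoglobulin-family protein whose extracellular parts meet in the slit (chromosome 7, 30458207 to 30488623, plus strand). Its stronger region, chr7:30478056-30478820, lay inside the gene, 18.4 kb downstream of the RefSeq start, and was 765 bp wide. There the significance value was 1.55e-28 in replicate 1 (rank 240 of its list) and 3.66e-66 in replicate 2 (rank 145). Both replicates thus placed it among their strongest peaks, and its IDR of 5.23e-07 was rank 118 of the overlap table. Only 1.02% of protein-coding genes had an overlap region with an IDR that low in their own window. The table of genes gives no exons, so whether the region is exonic or intronic is not known here.

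A second region of Nphs1, chr7:30441806-30442101, lay 18.1 kb upstream of the RefSeq start, at nearly the same distance as the first on the other side. Its significance value was 6.33e-04 in replicate 1 and 1.51e-11 in replicate 2, and its IDR was 0.00979. It sat inside Aplp1, which encodes a relative of the amyloid precursor protein, 3.63 kb from the RefSeq start of Aplp1 and 15.6 kb from that of Kirrel2. Kirrel2 encodes another nephrin relative and starts next to Nphs1 in the opposite direction. Each of the 2 Nphs1 regions had 5 other protein-coding genes within 50 kb, so the assignment to Nphs1 is by distance only. By contrast, the reproducible regions of Magi2 and Tjp1 had 0 others within that distance.

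At the Nphs1 start itself the replicates did not share a peak. Replicate 2 had a peak of 274 bp with a significance value of 0.0166, which ended 152 bp before the RefSeq promoter window, and another at 0.0236 over the start of Kirrel2. Replicate 1 had none within 17.7 kb of the window. The motif match in the Nphs1 promoter began 227 bases before the start and lay 17729 bases from the nearest overlap region. In all, replicate 1 had 3 peaks and replicate 2 had 8 in the Nphs1 window, and 2 of each overlapped.

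Fat1 encodes a giant atypical cadherin of the slit (chromosome 8, 44933100 to 45052257, plus strand). It had 3 overlap regions, all inside the gene, and none was reproducible, with IDR values of 0.173, 0.286 and 0.352. The region nearest the 5′ end, chr8:44937817-44937988, had a significance value of 3.95e-06 in replicate 1 and 0.00479 in replicate 2. Replicate 1 ranked it 2744 and replicate 2 ranked it 17345, so the lists disagreed on its strength. The region with the lowest IDR was the weaker one at 44974817 to 44975014, with values of 0.0314 and 0.0143 in replicates 1 and 2. Replicate 1 also had an unshared peak at 2.81e-04, 16.6 kb inside the gene and 562 bp upstream of the RefSeq start. That start lies 17.1 kb inside the gene span. Replicate 2 had an unshared peak 1.29 kb upstream of the same start at 0.0297. It also had unshared peaks 1.72 and 2.05 kb inside the 5′ end of the gene at 0.0181 and 0.00651. None of the Fat1 peaks lay outside the gene span, in replicate 1 (7 peaks) or replicate 2 (9 peaks).

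**Figure D2:**
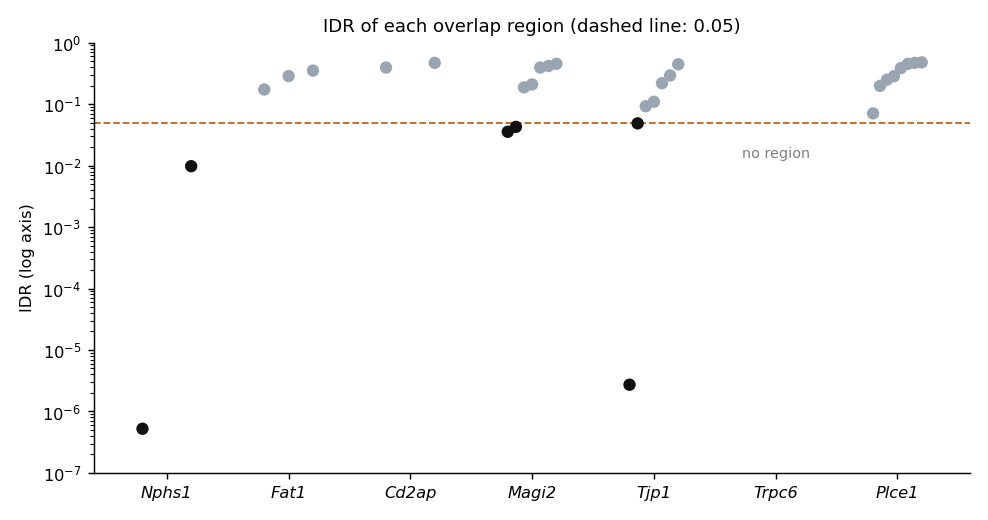
IDR (log axis) of each of the 29 overlap regions by gene, with horizontal spread only to separate points; black points are at or below the dashed line at 0.05. Nphs1 and Tjp1 each hold 1 point below 1e-05, the black points of Magi2 and the second of Tjp1 lie just under the line, and Trpc6 has no region.

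Among the scaffold proteins, Tjp1 and Magi2 held reproducible regions and Cd2ap did not. Tjp1 encodes ZO-1, a tight junction scaffold found at the cytoplasmic face of the slit (chromosome 7, 65296165 to 65527850, minus strand). Its strongest region, chr7:65500968-65501312, was 345 bp wide and had the identical start and end in both replicates. The significance value there was 4.32e-21 in replicate 1 (rank 429) and 5.66e-37 in replicate 2 (rank 477). At an IDR of 2.72e-06 it was rank 373 of the overlap table. Counted at any length, 3.08% of protein-coding genes had an IDR that low in their window. By the lowest IDR of each, the share was 24.12% for Magi2, 28.1% for Plce1, 34.98% for Fat1 and 47.98% for Cd2ap. These shares were not counted among long genes alone. The strongest region of Tjp1 lay 26.7 kb inside the 5′ end of the gene span. It was 130 kb upstream of the single RefSeq start in the promoter table, itself 157 kb inside the span.

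A pair of neighbouring regions stood further into Tjp1. The region at chr7:65414431-65414787 had values of 1.56e-08 and 9.80e-05 in replicates 1 and 2 and an IDR of 0.0487. Its neighbour at 65415360 to 65415591 had 5.78e-08 and 5.83e-04 and an IDR of 0.109. Both of the pair had the smaller value in replicate 1, and the better rank as well (1712 against 7954 in replicate 2, and 1906 against 10331). In total Tjp1 had 7 overlap regions, 6 of them inside the gene. Only 2.46% of protein-coding genes, counted at any length, had as many, and Magi2 had the same number in a span of 1485 kb. Per Mb of gene and flank these were 21.1 overlap regions at Tjp1 and 4.42 at Magi2. The median over protein-coding genes of 100 kb or longer was 6.61. The overlap region outside the gene, 4.715 kb past the 3′ end of Tjp1, had an IDR of 0.0924. Its values were 0.0314 and 0.0197 in replicates 1 and 2.

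Magi2 encodes a membrane-associated guanylate kinase with PDZ and WW domains that binds nephrin (chromosome 5, 19219387 to 20704792, plus strand). Its reproducible regions lay within 1.47 kb of the first RefSeq start, and those further away did not pass. The region chr5:19226950-19227210 had its midpoint 34 bp after the start, and chr5:19225479-19225667 had its midpoint 1.47 kb before it. At the start the significance value was 2.81e-04 in replicate 1 and 4.07e-07 in replicate 2, with an IDR of 0.0426. Upstream of it the values were 1.21e-04 and 5.23e-05 in replicates 1 and 2, with an IDR of 0.0355. By rank the replicates were close at the start (4697 in replicate 1 and 4723 in replicate 2) and further apart upstream (4144 and 7338), and neither region passed an IDR of 0.01. Of the 29 overlap regions at members, the region at the Magi2 start was the only one within 1 kb of the RefSeq start used for that gene. The same share over all overlap regions was not counted. The start used can lie far from the 5′ end of the span. At Plce1 it lies 43.2 kb inside the span, and an overlap region had its midpoint 368 bp inside the 5′ end.

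In the printed Magi2 promoter the capitals begin with CT directly after ag, so the region starts at the cut of an AGCT site. AGCT is the site of AluI, one of the enzymes that, per the labels' protocols, were used to cut the recovered DNA before the adapters were joined. Both replicates put the start of this peak on that same base. The only motif match in the window, on the opposite strand from 119 bases before the start, lay 14 bases outside the region. Over all peak starts that fell in promoter windows, 24.5% of 992 in replicate 1 and 17.1% of 1679 in replicate 2 were at the cut of an AluI site, although AGCT began at 0.526% of positions. For MseI (TTAA) the shares were 6.45% and 5.66% in replicates 1 and 2, against 0.324% of positions. For HaeIII (GGCC) they were 0.706% and 0.655%, against 0.611% of positions. An edge on the same base in both replicates can therefore mark the same cut site.

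The other 5 overlap regions of Magi2 had IDR values of 0.187 to 0.454 and lay 38.3 kb outside the 5′ end and 663 to 1415 kb inside it. Replicate 1 had 28 peaks and replicate 2 had 21 in the Magi2 window, the highest counts of the 7 genes, and 7 of each overlapped. Per Mb these were 17.7 and 13.2 peaks, the lowest of the 7 genes in replicate 1 and the second lowest, after Trpc6, in replicate 2. The second RefSeq start of Magi2, at 19907518, had no overlap region within 24.9 kb of its window.

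Cd2ap encodes an adaptor that links nephrin to actin and to endocytosis (chromosome 17, 42748887 to 42876707, minus strand). It had 2 overlap regions at IDR values of 0.394 and 0.469, far above the threshold. The region inside the gene, 20.0 kb from its 5′ end (chr17:42856657-42856839), had values of 0.00627 and 0.0197 in replicates 1 and 2. The other lay 37.1 kb past the 3′ end, inside Adgrf2, an adhesion G protein-coupled receptor gene, with 0.0136 and 0.00173. Its most significant peaks were unshared and in different places: in replicate 1 at 0.00262, 70.4 kb inside the gene, and in replicate 2 at 1.87e-04 and 2.36e-04, 32.5 and 6.99 kb upstream of the 5′ end. The Cd2ap promoter, the richest in GC of the member windows at 77%, had no peak of replicate 1 within 4.94 kb and none of replicate 2 within 6.93 kb.

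The signalling members had no reproducible region. Trpc6 encodes a cation channel that is active in podocytes and is mutated in hereditary forms of glomerular disease in people (chromosome 9, 8543867 to 8680752, plus strand). It was the only member with 0 overlap regions, against 57.0% of all protein-coding genes and 81.6% of those of 100 kb or longer with at least 1. Replicate 1 had 6 peaks in its window with significance values of 1.99e-04 to 0.0371, 5 of them outside the gene. Replicate 2 had 2, both inside the gene, at 0.0119 and 0.0172. The closest approach of the lists was 2.66 kb, between a replicate 1 peak 0.355 kb upstream of the 5′ end and a replicate 2 peak 2.40 kb inside the gene.

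Plce1 encodes phospholipase C epsilon, which couples small GTPases to lipid signalling (chromosome 19, 38481034 to 38785105, plus strand). It had 8 overlap regions, the most of the 7 genes and as many as in only 1.54% of protein-coding genes, counted at any length. Per Mb of gene and flank that was 19.8, against a median of 6.61 over protein-coding genes of 100 kb or longer. Yet the lowest IDR was 0.0707. The region with that IDR, chr19:38478174-38478368, lay 2.76 kb upstream of the 5′ end with the identical start and end in both replicates. Its significance value was 0.00359 in replicate 1 and 8.44e-07 in replicate 2. The next, at 38481362 to 38481443 and 368 bp inside the 5′ end, had 0.0255 and 7.29e-07 in replicates 1 and 2 and an IDR of 0.470. Inside the gene, 23.8 kb from the 5′ end, a region had 0.0106 in replicate 1 and 1.10e-11 in replicate 2, with an IDR of 0.250. Of the 8 regions of Plce1, 6 had both the smaller value and the better rank in replicate 2. The exceptions were at 38521598 and 38566926, with 0.00266 and 6.33e-04 in replicate 1 against 0.0140 and 0.00125 in replicate 2.

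**Figure D3:**
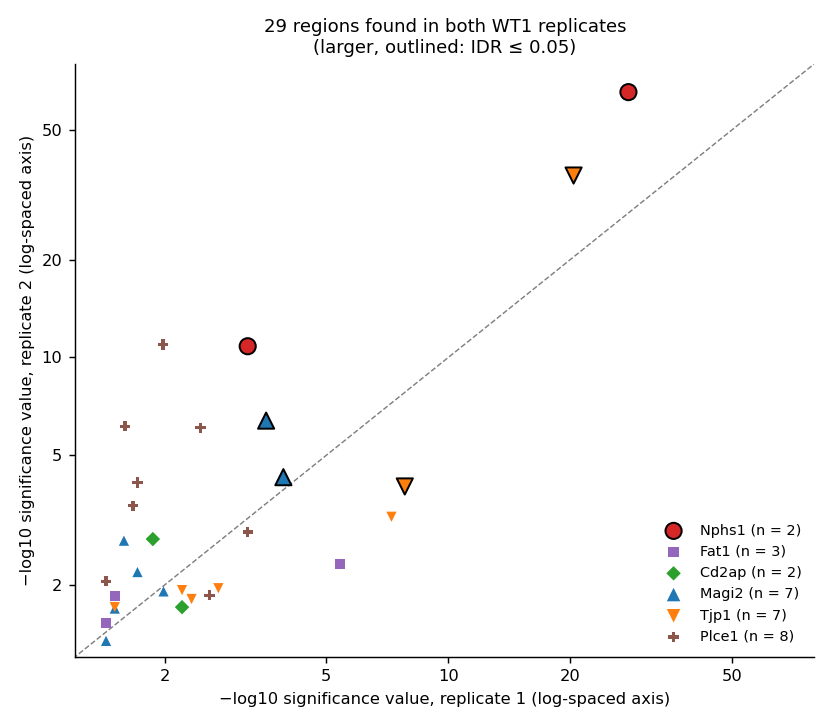
Significance values of the 29 overlap regions as −log10 in replicate 1 (x) and replicate 2 (y), both axes log-spaced, with larger outlined symbols for an IDR of 0.05 or lower and the dashed line for equal values. The strongest regions of Nphs1 and Tjp1 stand apart at the upper right, most Plce1 regions lie above the line, and the stronger pair of Tjp1 and 1 region of Fat1 lie below it.

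Significance values are on different scales in the lists, with a median of 0.0261 over all replicate 1 peaks and 0.0125 over all replicate 2 peaks. Across the 29 overlap regions, 18 had the smaller value in replicate 2 and 11 in replicate 1, but 13 had the better rank in replicate 2 and 16 in replicate 1. Of the 6 reproducible regions, 5 had the smaller value in replicate 2, and by rank only the 2 of Nphs1 stood higher there. Ranks were not scaled to the lengths of the lists (53132 and 57641 peaks). Scaling would change the order at the Magi2 start (4697 and 4723), where the region would then stand higher in replicate 2. All 7 regions of Tjp1 had the better rank in replicate 1. The 6 reproducible regions of the members had a median value of 6.05e-05 in replicate 1 and 2.04e-07 in replicate 2. Over all reproducible regions the medians were 8.10e-07 and 1.54e-12, so by these medians the members' were weaker. The median IDR of the 29 was 0.250, equal to that of all overlap regions to 3 digits, and 20.7% of them were reproducible against 25.6% of all. Their median width was 215 bp against 224 bp. All 29 regions spanned exactly 1 peak of each replicate. In 19 of them the replicates had the same start or the same end, and in 3 both, at Magi2, Tjp1 and Plce1. Equal edges were not counted over all overlap regions, so this is not known to be particular to these genes.

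IDR and significance did not always run together at these genes. A Magi2 region with values of 0.0371 and 0.0454 in replicates 1 and 2 had an IDR of 0.187, lower than the 0.286 of the Fat1 region with 3.95e-06 and 0.00479. Of the overlap regions with both values at 0.001 or lower, 6 of 7 at members and 4033 of 4426 in all were reproducible. With both values above 0.01 it was 0 of 6 at members and 22 of 3707 in all.

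Most peaks of a replicate at these genes were absent from the other. Of the replicate 1 peaks 29 of 88 were shared (33.0%, exact Clopper-Pearson 95% interval 23.3 to 43.8), against 34.1% (33.7 to 34.5) of its other peaks. In replicate 2 it was 29 of 78 (37.2%, 26.5 to 48.9), against 30.8% (30.4 to 31.1) elsewhere. The intervals cover counting error only, treat peaks as independent, and include the share of the other peaks in both lists. Shared peaks at members had a median significance value of 0.00627 in replicate 1 and 0.00186 in replicate 2, and unshared ones of 0.0314 and 0.0156. By gene, the shared count was 7 of 28 and 7 of 21 at Magi2, 7 of 19 and 7 of 16 at Tjp1, and 8 of 19 and 8 of 16 at Plce1, for replicates 1 and 2.

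**Figure D4:**
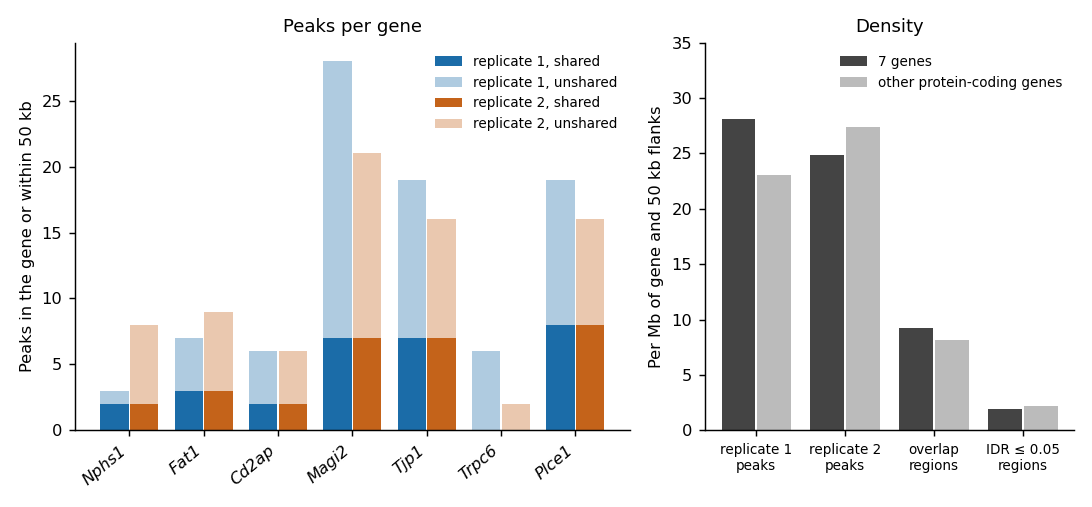
Left, peaks in each gene or within 50 kb by replicate, with the shared part in full colour and the unshared part pale. Right, peaks and regions per Mb of gene and flank over the 7 genes and over the other protein-coding genes. As pooled rates the 7 genes are higher for replicate 1 (28.1 against 23.0) and for overlap regions (9.25 against 8.18). They are lower for replicate 2 (24.9 against 27.4) and for regions with an IDR of 0.05 or lower (1.91, from 6 regions, against 2.20). Without Magi2 the last 2 turn to 36.8 and 2.58 per Mb (2.58 from 4 regions), above the other genes.

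Per length, the comparison with other genes turned on Magi2, which makes up 1.59 of the 3.14 Mb. Over all 7 spans and flanks there were 28.1 replicate 1 peaks per Mb against 23.0 over the other protein-coding genes, and 24.9 replicate 2 peaks per Mb against 27.4. Overlap regions stood at 9.25 against 8.18 per Mb and reproducible regions at 1.91 against 2.20 per Mb. Without Magi2 the 6 other genes had 38.7 replicate 1 peaks, 36.8 replicate 2 peaks, 14.2 overlap regions and 2.58 reproducible regions per Mb, each above the rate over the other protein-coding genes. The rates of reproducible regions rest on only 6 regions in 3.14 Mb with Magi2 and 4 in 1.55 Mb without it. Taken gene by gene, the median over the 7 was 26.3 replicate 1 peaks and 39.6 replicate 2 peaks per Mb. It was 19.4 and 26.3 over all protein-coding genes, and 23.8 and 24.9 over those of 100 kb or longer. For reproducible regions each of these medians was 0. Tjp1 had the highest density of replicate 1 peaks (57.3 per Mb) and of overlap regions (21.1 per Mb), and Nphs1 the highest of replicate 2 peaks (61.3 per Mb). Inside the gene, 3 of the 7 members had a reproducible region, against 7.95% of all protein-coding genes. Of the 6 members of 100 kb or longer, 2 had one inside (Magi2 and Tjp1), against 29.9% of protein-coding genes of that length.

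Further genes of the slit diaphragm and its junctions gave a wider view. Of 30 such genes, 16 had a reproducible region in the gene or within 50 kb (53.3%). That compares with 26.1% of all protein-coding genes and 42.0% of those of 100 kb or longer. An overlap region of any IDR was found for 27, against 57.0% of all protein-coding genes and 81.6% of those of 100 kb or longer. Their median span was 79.4 kb, and 13 were 100 kb or longer. Of the polarity and junction genes, Pard6b, a subunit of the apical polarity complex, had a region 8.06 kb outside the gene at an IDR of 9.10e-08, with significance values listed at 0 in both replicates. Ctnnb1, which encodes beta-catenin, had its best region 48.5 kb away at an IDR of 9.00e-07. Magi1, the closest relative of Magi2 on the list, had 1 inside the gene at an IDR of 0.00133. Kirrel2 was counted through both regions described for Nphs1.

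Other named genes act inside the cell. Fyn, the Src-family kinase that phosphorylates nephrin, had 4, the best 1.08 kb inside an end of the gene at an IDR of 2.49e-06 with 3.35e-17 and 1.69e-51 in replicates 1 and 2. Of the adaptors, Nck2, which binds phosphorylated nephrin, had 2, the better 0.3695 kb outside the gene at an IDR of 6.82e-05. Grb2 had 1, 29.3 kb outside the gene at 9.21e-06. Nck1, the relative of Nck2, had a single overlap region at an IDR of 0.308. Ptpro, a receptor tyrosine phosphatase of podocytes, had 2 (best IDR 2.02e-04, 43.0 kb from an end), and the actin-binding motor gene Myo1e had 1 at 8.89e-05. Actn4, which encodes an actin crosslinker, and Iqgap1, a scaffold gene, had 1 each at IDR values of 7.02e-04 and 9.69e-04. The region with the lowest IDR lay inside the gene at Fyn, Ptpro, Myo1e and Actn4.

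With fewer or more regions the set of members changed. At an IDR of 0.01 or lower 2 members remained, Nphs1 with 2 regions and Tjp1 with 1, against 19.6% of all protein-coding genes. At 0.1 or lower there were 4, with Plce1 added, against 30.2%. Taking replicate 1 alone, cut to its 4411 most significant peaks, 4 members had a peak, Nphs1, Magi2, Tjp1 and Fat1, against 24.7% of all protein-coding genes. Replicate 2 alone, cut likewise, gave 3, Nphs1, Tjp1 and Plce1, against 26.2%. Nphs1 and Tjp1 were called in each of these settings, and Cd2ap and Trpc6 in none.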

How the data were processed

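The authors deposited 1 peak list per WT1 sample (2 lists) and 1 overlap table, in mm10 per the submitters' processing notes. Each peak has a position and 1 value, read as a p-value or q-value because the deposited values run from 0 to 0.0499, and each overlap region has an IDR between 5.19e-08 and 0.555. Not given in the sources used here: aligner, peak caller, use of IgG reads. Per the labels' protocols, the libraries went through 18 rounds of PCR.

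Gene spans came from RefSeq (GRCm38.p6). A peak was placed by its midpoint, positions are 1-based, and an overlap of 1 bp or more made a peak shared. Shares have exact Clopper-Pearson 95% intervals. Scripts ran in Python 3.11.15 with pandas 2.3.3, numpy 2.4.6 and scipy 1.17.1, and counting, overlap and motif functions were tested on simulated data. The members, the further genes and the settings were chosen with earlier results of these data known. The rule named the 7 members and, of the further genes with a reproducible region, the 12 with the lowest IDR, of which 1 is not reported here. Nck1 was named after its value was seen. No test was made, since IgG samples were not analysed here. Alternatives were other thresholds, windows, placement, overlap rules, motifs and each replicate alone.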

Additional observations from a re-analysis of the deposited data

How the results depend on the processing

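No paired analysis was possible because the IgG samples, which share replicate numbers with the WT1 samples, were not analysed here. Of 38 alternative values, 26 stayed within 1.5 times the reported count or within the interval of the share. Without a threshold on IDR 6 members had a region, against 57.0% of all protein-coding genes and 81.6% of those of 100 kb or longer. At an IDR of 0.01 there were 3 reproducible regions in place of 6. With peaks limited to a significance value of 0.01 or lower, members held 27 peaks of replicate 1 and 33 of replicate 2, and 55.6% and 54.5% of these were shared. The WTE motif was in 0 member windows and GCGGGGGCG in 1, against 5 for GNGTGGGNG. Leaving out 1 replicate gave 3 to 4 members and 4 to 6 peaks. The window, from the gene alone to 100 kb, left 3 members and between 5 and 6 reproducible regions. Without Magi2, an alternative chosen after seeing the data, the members' rate minus that of other protein-coding genes turned to 0.38 per Mb for reproducible regions and 9.40 for replicate 2 peaks, against -0.29 and -2.50 with it. It was 6.02 for overlap regions and 15.7 for replicate 1 peaks, against 1.07 and 5.04 with it. The rates of reproducible regions rest on 4 regions without Magi2 and 6 with it. Magi2 has the fewest replicate 1 peaks per Mb of the 7 genes. Depth is unknown, so a missing peak may lie below the authors' threshold.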
